A study of Mus musculus with 45 samples.

Results

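DNA copy number was examined in 5 mammary tumors of the BRCA1-/-;p53+/- model, chosen as the samples whose labels give the model BRCA1fl/fl;p53+/-;MMTV-cre, of 45 tumors hybridized in all. Each array compared DNA of a mammary tumor with DNA of pooled mouse spleen on an Agilent 44K comparative genomic hybridization array, in which the ratio of the 2 dyes at a probe follows the number of DNA copies there. The other 40 tumors came from MMTV-Myc (5), C3(1)-Tag (5), MMTV-Her2/neu (5), MMTV-HRas (5), p53-/- (6), MMTV-PyMT (9) and MMTV-Wnt1 (5) mice. The values covered 40666 probes on 19 autosomes, and the number of arrays limited the precision of every comparison.

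In the BRCA1-/-;p53+/- model both Brca1 alleles are flanked by loxP sites and are cut by a Cre recombinase under the MMTV promoter, which is active in the mammary epithelium, while 1 of the Trp53 alleles is inactive in the whole animal. The p53-/- tumors carry floxed p53 alleles with the same MMTV-driven Cre and arose from transplants. The remaining models carry a transgene for Myc, Her2/neu, HRas, the polyoma middle T antigen or Wnt1 under the MMTV promoter, or SV40 T antigens under the C3(1) promoter. Neither the ages nor the strains of the animals are in the labels, and nothing there says whether the tumors of a group came from separate animals, so the p-values measure only the spread between these tumors. The labels describe the reference both as pooled spleen and as normal mammary tissue.

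BRCA1 acts in the repair of DNA double strand breaks by homologous recombination. Cells without it repair such breaks by error-prone joining and acquire gains, losses and rearrangements. p53, encoded by Trp53, halts or kills cells with damaged DNA, and its loss is frequent in BRCA1-deficient breast tumors.

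Values are log2 ratios of Cy3 over Cy5 after the median of the autosomal probes of an array was set to 0. This direction is opposite to that of the dyes in the labels, which put the tumor in Cy5. It was taken because 5171 of 5199 autosomal copy number intervals deposited by the authors (99.5%), and 1007 of 1017 in the BRCA1-/-;p53+/- tumors, had the sign of Cy3 over Cy5. The Wnt1 probe of the tumors labelled MMTV-Wnt1 gave a mean of 1.06 ± 0.57 (SD, n = 5) in this direction, against 0.13 ± 0.28 (SD, n = 40) in all other tumors. The array Wnt_4635 went against its label, with 0.07 at this probe where the 4 others of its model read 1.07 to 1.497. With the labelled direction every sign below would turn, and no size or p-value would change.

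The probe-to-probe noise of the 5 arrays (SD 0.198 to 0.359) lay within the range of the other arrays (0.158 to 0.476). Their median Cy5 signal was 3.67 to 4.95 times the background. The Cy3 signal was 8.80 and 8.95 times the background in Brcap53_503 and Brcap53_682, against 4.33, 4.04 and 3.70 in Brca_14, Brca_42 and Brca_54, of which the last 2 lay below all 40 other arrays (lowest 4.31). Brca_14, Brca_42 and Brca_54 shared a slide and a scan day, and the other 2 were scanned on 1 other day on a slide each. None of these slides or days held another model, so slide or scan day and model cannot be told apart. In the other models, 2 pairs of arrays had nearly the same profile although each pair joined C3(1)-Tag with MMTV-Her2/neu, at r = 0.960 and 0.928.

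The targeted Brca1 gene was low at 1 of its 2 probes in every BRCA1-/-;p53+/- tumor. The probe at chr11:101340828-101340887 (mm8) read -4.69 in Brcap53_503, -3.58 in Brcap53_682, -5.14 in Brca_14, -1.69 in Brca_42 and -4.76 in Brca_54. All 5 lay below the lowest of the 40 other tumors, which ranged from -0.64 to 0.78. The mean difference was -4.03 (exact permutation test, 2-sided p = 1.64e-06, the smallest that 1221759 assignments can give after doubling, adjusted p = 6.55e-06 over 4 probes). With normexp background correction it was -1.05 with the same p. Brca_42 was the least reduced tumor at this probe.

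The other Brca1 probe, chr11:101314063-101314118, read 0.22, 0.81, 0.15, 0.20 and 0.57 in the same order of tumors, a mean 0.25 above that of the others, which did not pass (exact permutation, adjusted p = 0.0533, and 0.0341 with assignments counted by absolute size). The nearest probes of Rnd2 and Nbr1 ranged from -0.35 to 1.52. The nearest Nbr1 probe read -0.16 in Brcap53_503 and -0.35 in Brca_54, below the median of the others (0.51), and 0.88 to 1.52 in the other 3 tumors. None of the neighbouring probes was below -1. Trp53, of which these mice carry 1 intact copy from the start, gave -0.27, -0.13, -0.28, -0.26 and -0.15 at 1 probe and -0.04, -0.27, 0.06, 0.09 and -0.33 at the other. These values overlapped those of the other tumors (differences -0.14 and -0.02, exact permutation, adjusted p = 0.388 and 0.885). The segments that hold Trp53 were nevertheless at -0.24 in Brcap53_503, -0.33 in Brcap53_682 and -0.22 in Brca_54, against -0.04 in Brca_14 and 0.04 in Brca_42.

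**Figure D1:**
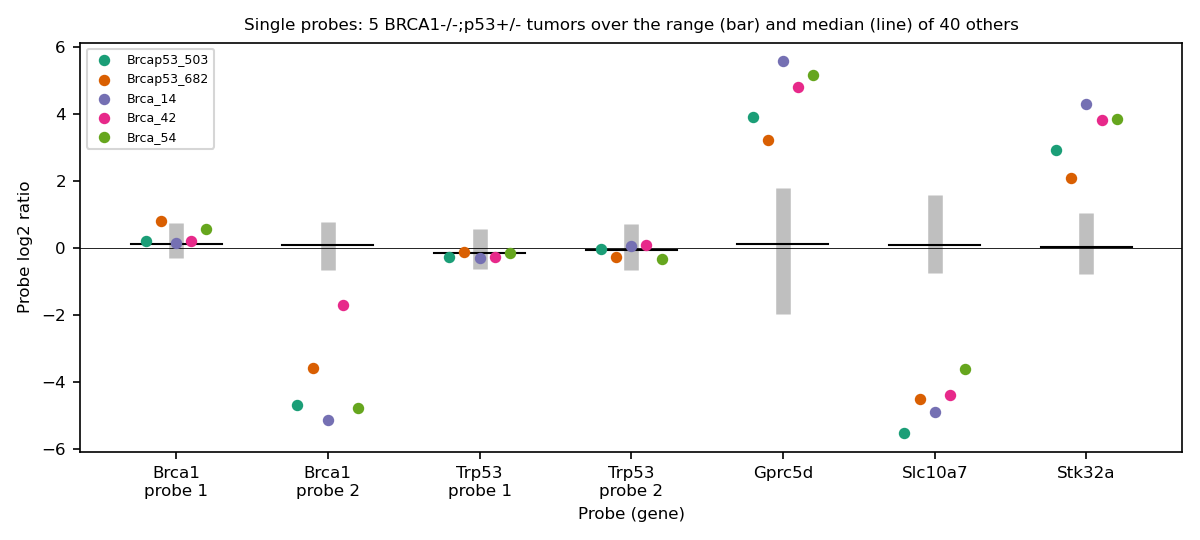
Log2 ratio (Cy3 over Cy5) of single probes on the vertical axis, with points for the 5 BRCA1-/-;p53+/- tumors, grey bars for the range of the 40 other tumors and black lines for their median. Probe 2 of Brca1 and the plotted probe of Slc10a7 (1 of its 2) lie below the bars in 5 of 5 tumors, the plotted probes of Gprc5d and Stk32a (1 of 2 each) lie above them, and both Trp53 probes lie within them.

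The 5 tumors differed widely in how much of the genome was altered. Each array was divided into segments of at least 5 probes, and a segment was called gained or lost from a mean of 0.2 in size. Brca_54 had 61.4% of its 1 Mb bins altered (25.2% gained, 36.2% lost) and Brca_14 had 56.7% (24.4% gained, 32.3% lost). Brcap53_682 followed with 38.4% (23.0% gained, 15.4% lost). Brca_42 and Brcap53_503 were the least altered, at 15.9% and 9.14%. In each tumor except Brcap53_682 the lost share exceeded the gained share.

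Losses and gains of whole chromosomes were seen in 4 of the 5 tumors. At least 90% of the probes were gained on chromosomes 6 and 15 in Brcap53_682, 1 and 15 in Brca_14, 6 in Brca_42 and 15 in Brca_54. They were lost on chromosome 10 in Brcap53_682, on 9, 12 and 14 in Brca_14, on 12 and 18 in Brca_42, and on 7, 13, 16 and 18 in Brca_54. Brcap53_503 had no such chromosome, and its 3 altered segments of 10 Mb or more were losses on chromosomes 4 and 11. Brca_54 had 37 such segments, Brca_14 had 29, Brcap53_682 had 22 and Brca_42 had 5.

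**Figure D2:**
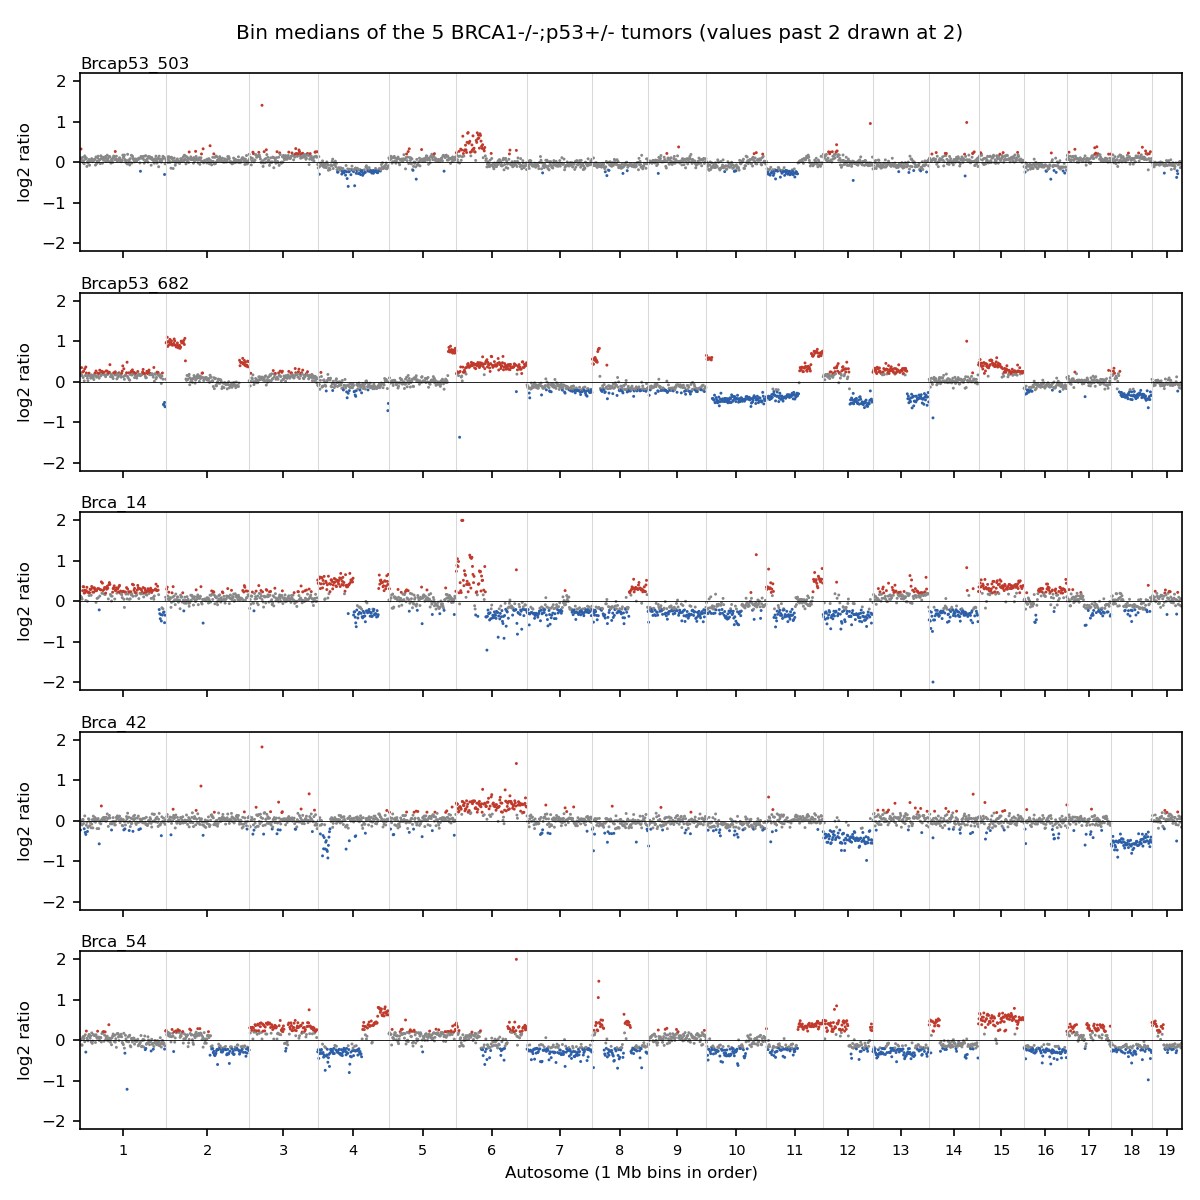
Median log2 ratio (vertical axis, Cy3 over Cy5) of each autosomal 1 Mb bin, in order along chromosomes 1 to 19 (horizontal axis), with 1 panel for each BRCA1-/-;p53+/- tumor, red from 0.2 upward and blue from -0.2 downward. Brcap53_503 and Brca_42 are flat over most autosomes, whereas at least 10% of the probes were altered on 12 of 19 in Brca_14 and 16 of 19 in Brca_54.

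Against the 40 other tumors, the BRCA1-/-;p53+/- tumors had more segment borders, but their altered share did not pass. The number of borders was 63 in Brcap53_503, 85 in Brcap53_682, 98 in Brca_14, 39 in Brca_42 and 151 in Brca_54. The mean of 87.2 ± 42.1 (SD, n = 5) compared with 39.3 ± 38.3 (SD, n = 40) in the others, a difference of 47.9 (exact permutation, p = 0.0281). That call was lost without Brca_14 (45.2, exact permutation p = 0.0646), without Brca_54 (32.0, p = 0.144), with normexp background correction (26.2, p = 0.0575) and where single deviating probes were not adjusted (111.3, p = 0.197). The p53-/- tumors had a mean of 103.5 borders.

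The altered share was 36.3% ± 23.5 (SD, n = 5) against 22.6% ± 25.5 (SD, n = 40), a difference of 13.7 percentage points (exact permutation, adjusted p = 0.407 over 3 shares). Gains (16.3% against 13.2%, adjusted p = 0.601) and losses (19.96% against 9.45%, adjusted p = 0.407) did not pass either in this exact permutation test. Compared with single models, the altered share was above that of MMTV-Myc (2.04%) and MMTV-PyMT (7.11%), with an exact permutation adjusted p = 0.0350 over 7 models for each. Both calls were lost when a single tumor such as Brca_14 was left out (differences 29.1 and 24.1, exact permutation, adjusted p = 0.0979). With all 5 tumors the differences were 34.25 and 29.2. The unadjusted exact permutation p for MMTV-Myc was then 0.00794, the smallest that 5 against 5 can give. That limit rises with 1 tumor fewer, so the loss of this call cannot be told apart from the smaller number of tumors. Both calls were also lost at a threshold of 0.3 (16.95 and 13.3, adjusted p = 0.0556) and with centring on the density peak (adjusted p = 0.0556 and 0.0559), and that of MMTV-Myc with normexp (20.1, 0.0556), in the same exact permutation test. The shares in MMTV-Wnt1 (8.92%), MMTV-HRas (26.1%), MMTV-Her2/neu (32.6%), C3(1)-Tag (33.3%) and p53-/- (54.5%) did not differ past the threshold from that of the 5 tumors. The MMTV-Wnt1 mean rested on Wnt_4635 (38.5%), as the 4 others had 0.0972% to 4.08%. Without that array the difference passed (34.8, exact permutation, adjusted p = 0.0370), as it did with normexp (21.8, 0.0420).

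**Figure D3:**
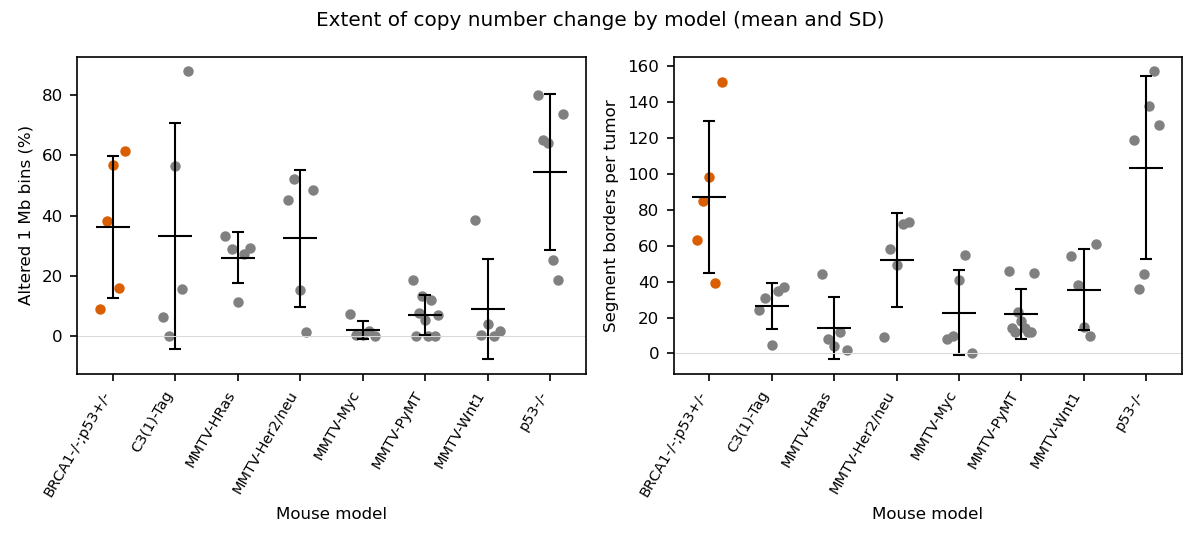
Percent of autosomal 1 Mb bins altered (left) and number of segment borders per tumor (right) by model, with a point for each tumor, a black dash for the mean and bars for the SD. The BRCA1-/-;p53+/- tumors spread from 9.14% to 61.4% altered and from 39 to 151 borders.

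Chromosome 18 was lost in 3 of 5 BRCA1-/-;p53+/- tumors and in 0 of the 40 others, counting tumors with at least 10% of the probes of a chromosome in lost segments. In Brca_42 and Brca_54 all of its probes were in lost segments, and in Brcap53_682 79.5% were. Brcap53_503 and Brca_14 had none. In the other models the chromosome was gained in 10 of 40 tumors, among them 3 of 5 MMTV-Her2/neu and 2 of 6 p53-/- tumors. This was the single count of 38 (19 autosomes, gained or lost) called by Fisher's exact test (adjusted p = 0.0268), which is 2.63% of the counts.

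The number of the 5 tumors with this loss was 2 of 5 with a threshold of 0.3, with normexp background correction and in the authors' intervals, where 1 other tumor was also lost. The adjusted call was lost at the threshold of 0.3 (Fisher's exact test, adjusted p = 0.120), with normexp (0.128), with loess (0.0725) and in the authors' intervals (0.352). It was also lost without Brcap53_682 (0.172), Brca_42 (0.1205) or Brca_54 (0.241), that is, without any 1 of the 3 tumors with the loss.

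The mean log2 ratio of chromosome 18 was 0.10 in Brcap53_503, -0.23 in Brcap53_682, -0.09 in Brca_14, -0.52 in Brca_42 and -0.25 in Brca_54. Brcap53_682, Brca_42 and Brca_54 lay below the lowest of the 40 others (-0.18). The difference of the means was -0.30, from -0.20 ± 0.23 (SD, n = 5) to 0.10 ± 0.20 (SD, n = 40). Whether it passed depended on how the 2-sided exact permutation p was defined. With the smaller tail doubled the adjusted p was 0.0149 over 19 chromosomes (1 of 19 called, 5.26%), and with assignments counted by absolute size, which was computed first, it was 0.101 (0 called). It also missed without Brcap53_682 (-0.29, exact permutation, adjusted p = 0.0907), without Brca_42 (-0.22, 0.134), without Brca_54 (-0.29, 0.101) and with normexp (-0.21, 0.0751).

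**Figure D4:**
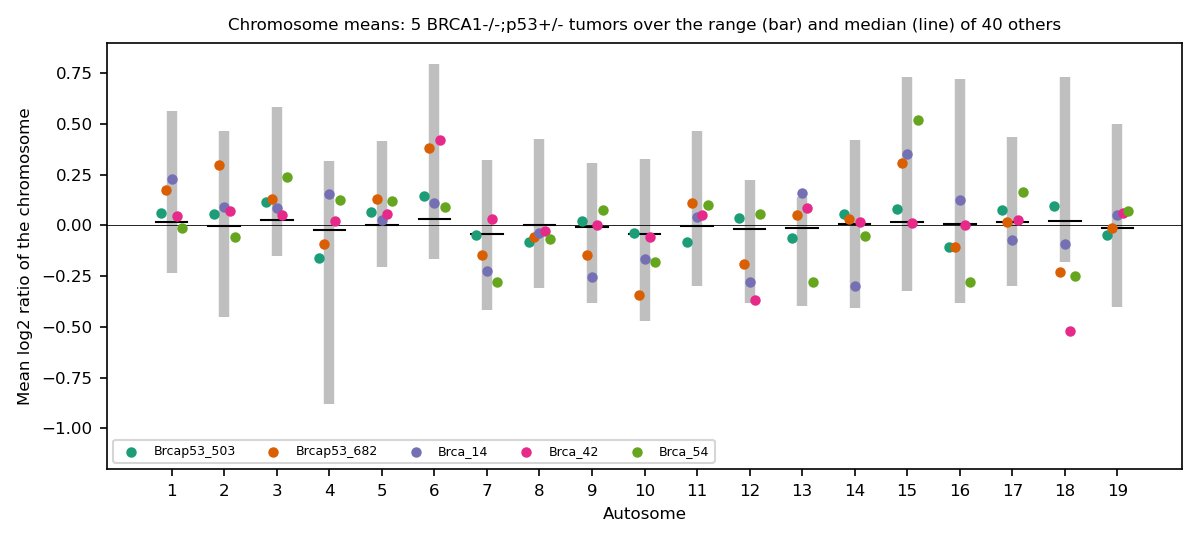
Mean log2 ratio (Cy3 over Cy5) of each autosome in the 5 BRCA1-/-;p53+/- tumors (points), over the range (grey bars) and median (black lines) of the 40 other tumors. On chromosome 18, 3 points lie below the bar, with Brca_42 lowest at -0.52.

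Gains on chromosome 6 took in at least 10% of the probes in 5 of 5 BRCA1-/-;p53+/- tumors and in 14 of 40 others, which did not pass (Fisher's exact test, adjusted p = 0.121). Among the others these were 4 of 5 MMTV-HRas and 5 of 6 p53-/- tumors. The gain spanned 98.0% of the probes in Brcap53_682 and 98.4% in Brca_42. It was partial in Brcap53_503 (37.1%), Brca_14 (34.1%) and Brca_54 (31.5%). In Brca_14 and Brca_54 other parts of the chromosome were lost, over 32.6% and 11.9% of the probes, as in 3 of 40 others. All 42 bins that were gained in at least 4 of 5 tumors lay on this chromosome, and 1 of them was gained in all 5. At a threshold of 0.3, 24 bins were gained in at least 4 tumors. From chr6:51000001-60000000 (mm8) the median bin value was 0.52 in Brcap53_503, 0.44 in Brcap53_682, 0.52 in Brca_14 and 0.40 in Brca_42, against 0.09 in Brca_54, which was gained at chr6:3000001-9000000 (0.28) and chr6:116000001-119000000 (0.29).

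A proximal part of chromosome 11 was lost in 4 of 5 tumors. Brca_42 had no lost probe on this chromosome. All 40 bins lost in at least 4 of 5 tumors lay there, in chr11:21000001-37000000 and chr11:40000001-67000000 (mm8). The second stretch had median values of -0.24 in Brcap53_503, -0.37 in Brcap53_682, -0.35 in Brca_14 and -0.20 in Brca_54, and 5 of 40 other tumors were lost there, 3 of them p53-/-. At a threshold of 0.3, 0 bins were lost in at least 4 tumors. The deposited intervals likewise gave 0. Loss of at least 10% of the chromosome was found in 4 of 5 against 5 of 40 tumors (Fisher's exact test, adjusted p = 0.0725). Gained segments covered 51.1% of the probes of chromosome 11 in Brcap53_682, 30.2% in Brca_14 and 56.1% in Brca_54. They lay in the distal part in Brcap53_682 and Brca_54, and at both ends in Brca_14, where chr11:3100146-20550066 was at 0.33. Gains of at least 10% of the chromosome were found in these 3 tumors and in 9 of 40 others (Fisher's exact test, adjusted p = 0.352). Those others included 4 of 5 MMTV-Myc and 4 of 9 MMTV-PyMT tumors.

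The copy number of other chromosomes was shared by fewer tumors. Chromosome 15, which carries Myc, was gained in Brcap53_682 (mean 0.31), Brca_14 (0.35) and Brca_54 (0.52), as in 11 of 40 others, with 0.08 in Brcap53_503 and 0.01 in Brca_42. Chromosome 12 was lost in Brcap53_682 (mean -0.19), Brca_14 (-0.28) and Brca_42 (-0.37), as in 8 of 40 others. It was also gained over 40.95% of the probes in Brcap53_682 and over 38.3% in Brca_54, as in 2 of 40 others. Chromosome 8 averaged -0.08, -0.06, -0.04, -0.03 and -0.07 in the 5 tumors. These means join changes both ways, since 39.3% of its probes were gained and 60.7% lost in Brca_14, 28.9% gained and 49.4% lost in Brca_54, and 13.9% gained in Brcap53_682. Chromosomes 12, 8 and 15 were the next 3 chromosomes by the p of their mean difference (exact permutation, adjusted p = 0.738 for each), and none was called by Fisher's exact test.

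**Figure D5:**
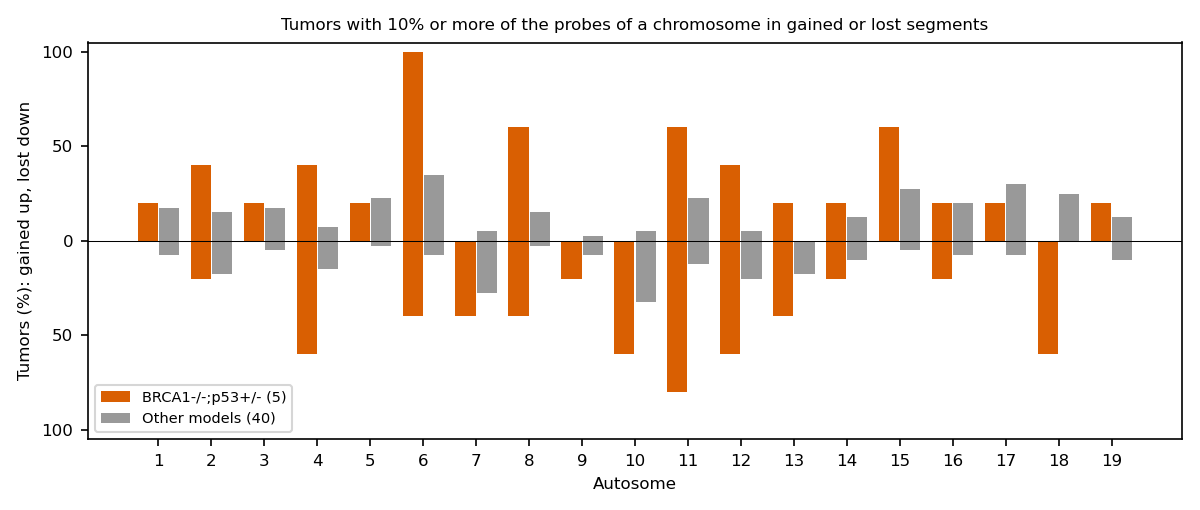
Percent of tumors with at least 10% of the probes of an autosome in gained segments (bars upward) or lost segments (bars downward), for the 5 BRCA1-/-;p53+/- tumors (orange) and the 40 others (grey). Chromosome 6 is gained in 5 of 5, and chromosome 18 is lost in 3 of 5 against 0 of 40.

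The highest amplification was found in Brca_14, at chr6:15327864-17778294 (mm8), a segment of 2.45 Mb and 25 probes with a mean of 5.36. It holds Met, the receptor of hepatocyte growth factor, the caveolin genes Cav1 and Cav2, and part of St7. The segments with Met were at 0.70 in Brcap53_503, 0.27 in Brcap53_682, 0.41 in Brca_42 and 0.07 in Brca_54. Brca_14 was thus the single tumor of its model amplified to this level, and 3 of the 40 others were past 1 there, 2 of them p53-/-. Brca_14 also had a segment of 65 probes at 1.04 with Braf, a kinase downstream of Ras, at chr6:37282182-39731610. Among its segments at or below -1, the one with the most probes was chr6:131384129-133091998, at -1.07 over 31 probes, named by the taste receptor gene Tas2r115.

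In all, 58 segments of the 5 tumors had a mean of at least 1 in size, 38 of them high and 20 low. The number was 18 in the authors' intervals and 260 where single deviating probes were not adjusted. Brca_14 had 24, Brca_54 had 16, Brca_42 had 10, Brcap53_682 had 5 and Brcap53_503 had 3. Only 8 of the 58 had 10 or more probes. They fell on 37 loci, of which 26 were seen in 1 tumor. Beyond chromosome 6, a locus of 34 probes at chr11:120260677-120580940 was at 1.21 in Brca_14 and 0.68 in Brcap53_682. A locus of 28 probes at chr8:18710513-19496644, named by the defensin gene Defb39, was at 1.33 in Brca_54 and 0.84 in Brcap53_682.

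Loci shared by 3 or more tumors were short. The locus chr7:48066915-48316952 with Mrgprb1, a gene of the Mas-related G protein-coupled receptors, had 6 probes and was high in 5 of 5 tumors, at 1.59 in Brcap53_503, 1.51 in Brcap53_682, 2.48 in Brca_14, 2.76 in Brca_42 and 2.64 in Brca_54. It was past 1 in 4 of 6 p53-/- tumors and past 0.2 in none of the other 34. The locus with 9030421J09Rik on chromosome 15 was at 2.17, 3.42, 2.86 and 2.24 in Brcap53_503, Brca_14, Brca_42 and Brca_54, with no other tumor past 1. A locus with AK155119 on chromosome 11 was high in 4 of 5 tumors, and 2 of the 40 others were past 1. The remaining shared loci held Klra22, a natural killer cell receptor gene, Aph1b, a subunit of gamma-secretase, and AY395631. Klra22 and Aph1b had segments past 1 in Brca_14, Brca_42 and Brca_54, the 3 arrays of 1 slide. Brcap53_503, on another slide, was at 0.54 and 0.88 at these 2 loci, and Brcap53_682 was at 0.06 at each. AY395631 was low in Brcap53_682 (-1.002), Brca_14 (-1.14) and Brca_54 (-1.02). At the Klra22 locus 14 of 40 others were past 0.2 and 4 past 1. At that of Aph1b 5 were past 0.2, all of them p53-/-, and 1 was past 1. At that of AY395631 4 others, all p53-/-, were past -0.2 and 0 past -1.

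Across 1 Mb bins, 65 of 2057 differed between the BRCA1-/-;p53+/- tumors and the 40 others (3.16%, limma with Benjamini-Hochberg adjustment). Of these, 13 were higher (0.632%) and 52 lower (2.53%). The lower bins included 19 on chromosome 18, 15 on chromosome 12 and 11 on chromosome 8. In the bins of chr18:49000001-54000000 the values were 0.08 in Brcap53_503, -0.36 in Brcap53_682, -0.24 in Brca_14, -0.64 in Brca_42 and -0.32 in Brca_54, and no other tumor was lost there. The call of the largest bin there was lost with normexp (-0.39, limma adjusted p = 0.233) and with array weights (-0.40, 0.21). It was also lost without Brcap53_682, Brca_14, Brca_42 or Brca_54 (limma adjusted p = 0.0568 to 0.0903). The number of bins rested on single arrays: it was 139 without Brcap53_503, 2 without Brcap53_682, 1 without Brca_14, 27 without Brca_42 and 4 without Brca_54. It was 36, 30 and 36 without MMTV-Myc replicates 2, 3 and 4, and 40, 32 and 34 without MMTV-Wnt1 replicates 1, 3 and 5. With centring on the density peak 22 bins were called, with array weights 3 and with normexp 2.

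The largest bin differences were on chromosome 14 (-0.81 at AK021355, in a bin of 4 probes, with -3.21 in Brca_14 and 0.08 and 0.23 in Brcap53_503 and Brca_54) and on chromosome 6 (0.70 at Klra22). The first call was lost without Brca_14 (-0.22, limma adjusted p = 0.367), without Brcap53_682 (-0.80, 0.1001) and, among other settings, with normexp (-0.18, 0.567). The second was lost without Brca_14 (0.72, limma adjusted p = 0.0920), Brca_42 (0.56, 0.131) or Brca_54 (0.41, 0.255), and, among other settings, with normexp (0.35, 0.285). Other genes named in the 10 regions with the largest differences were Klhl1, AK043657, Srfbp1, AK140045, AK089666, AJ426449, Ccdc27 and Slc10a2. Srfbp1, on chromosome 18, read -0.52, -0.95, -0.47, -0.45 and -0.53 as the mean of 2 probes. At 1 of them Brca_42 read 0.01, within the range of the others (lowest -0.29), and the segment of Brcap53_503 was at 0.09.

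Across gene names, 1073 of 20037 differed (5.36%, limma), with 468 higher (2.34%) and 605 lower (3.02%). Without Brca_14 the number was 468, without Brca_42 it was 670 and without Brca_54 it was 696. Neighbouring genes share segments and are not independent. Of 106 called genes with a difference of at least 1, 96 (90.6%) had a segment difference under 0.5, that is, the difference lay in their own probes and not in the surrounding segment.

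Some of these single-probe values were shared by all 5 tumors. At 1 of 2 probes Slc10a7, a solute carrier, read -5.52, -4.49, -4.90, -4.39 and -3.61, below all 40 others (lowest -0.74), and Stk32a, a kinase, at 1 of 2 probes read 2.93, 2.10, 4.29, 3.82 and 3.85, above all others (highest 1.04). Their second probes did not share this, with -0.10 to 1.45 for Slc10a7 and -0.39 to 0.18 for Stk32a. In all, 13 probes lay at least 2 from their segment in 5 of 5 tumors, 10 high and 3 low. Of these, 10 also did so in at least 3 p53-/- tumors and 2, 1 each of Slc10a7 and Stk32a, in no other tumor. Such isolated probes numbered 113 in Brcap53_503 and 90 in Brcap53_682, against 389, 329 and 265 in Brca_14, Brca_42 and Brca_54, the 3 arrays of 1 slide, whose lower Cy3 signal is given above, and the part of slide and signal in this was not tested. They numbered 256 to 404 in the p53-/- tumors, against medians of 7 to 88 in the other models. Single tumors of these overlapped the 5, with up to 367 in MMTV-Her2/neu, 157 in MMTV-PyMT and 140 in MMTV-HRas.

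Genes of pathways linked to BRCA1 and p53 were described as lists, which left out the targeted genes Brca1 and Trp53 themselves. Of 22 measured genes of homologous recombination, 1 was called: Brca2, a second hereditary breast cancer gene, rose by 0.37 (limma adjusted p = 0.0179), with values of 0.34, 0.84, 0.43, 0.34 and 0.17. Its segment was gained in 2 of 5 tumors, Brcap53_682 (0.75) and Brca_54 (0.24), and in 9 of 40 others. Its 2 probes disagreed in Brca_42 (1.102 and -0.42). The call was lost without Brcap53_682 (0.27, adjusted p = 0.140) and without Brca_14 (0.37, 0.0624). Atm, the kinase that signals double strand breaks, had a difference of -0.33 (limma adjusted p = 0.0517). It passed where only gene names with at least 2 probes were tested (0.0450) and without Brcap53_503 (-0.37, 0.0443). The 2 Atm probes disagreed in Brca_14 (-0.10 and -0.86), Brca_42 (0.30 and -1.42) and Brca_54 (0.02 and -0.88). The Atm segment was lost in 1 of 5 tumors, Brca_14 (-0.21), and in 3 of 40 others. The list had a median difference of -0.04, and over all gene names it was 0.01.

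Of 17 measured genes of the p53 pathway, 1 was called. Ppm1d, a phosphatase that restrains p53, read 0.20, 0.50, 0.13, -0.27 and 0.49, a difference of 0.40 (limma adjusted p = 0.0306), lost without Brcap53_682 (0.32, 0.138), Brca_14 (0.42, 0.0698) or Brca_54 (0.32, 0.145). Its segment was gained in Brcap53_682 and Brca_54 (0.33 in each) and in 3 of 40 others. Cdkn1a, the cell cycle inhibitor p21, had a difference of -0.52 (limma adjusted p = 0.0524), with values of -0.09, 0.00155, 0.21, 0.55 and -1.09. It passed without Brca_42 (-0.68, 0.01998). Cdkn1a had 1 probe, and its segments lay between 0.03 and 0.07 in the 5 tumors. The Cdkn2a segment was lost in 3 of 5 tumors, at -0.22 in Brcap53_503, -0.28 in Brca_14 and -0.31 in Brca_54, and in 5 of 40 others. The probes of Cdkn2a itself averaged -0.09, 0.01, -0.15, -0.05 and -0.17, a difference of -0.05 that was not called (limma adjusted p = 0.864).

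In the mammary lineage list, 2 of 18 measured genes were called. Elf5, a transcription factor of luminal progenitors, read 1.104, 0.70, 0.83, 0.75 and 0.75, a difference of 0.72 (limma adjusted p = 0.0126), although its segments lay between -0.24 and 0.09. Its 2 probes disagreed, with values of the 5 tumors from -0.30 to 0.32 at 1 probe and from 1.34 to 2.44 at the other. The call was lost in a fit of 2 groups (adjusted p = 0.105). Esr1, the estrogen receptor, had a difference of 0.33 (limma adjusted p = 0.0181), lost without Brcap53_682 (0.25, 0.127) or Brca_54 (0.26, 0.111). Its segment was gained in Brcap53_682 (0.57) and lost in Brca_54 (-0.29), where its 2 probes disagreed (-0.15 and 1.17). None of the genes was called in the lists of G1 regulators (15 measured), growth factor signalling (23), amplified oncogenes (19) and the mitotic spindle (15). At an unadjusted limma p under 0.05 these lists held 0, 2, 1 and 2 genes. The homologous recombination, p53 and mammary lineage lists held 5, 4 and 6, so that 20 of 129 genes (15.5%) were under it, against 19.6% of all gene names. Over the 7 lists 4 of 129 genes were called (3.10%), against 5.36% of all gene names.

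Among the genes without a call, Met differed by 0.71, Cav1 by 0.67 and Cav2 by 1.00, each through Brca_14, without which the differences were -0.33, -0.31 and -0.02. The Myc segment was gained in 3 of 5 tumors and 10 of 40 others. Ptdsr, now named Jmjd6 and coding for a histone demethylase and hydroxylase, read -0.25 in Brcap53_503, 0.77 in Brcap53_682, 1.12 in Brca_14, 0.48 in Brca_42 and 0.49 in Brca_54. Its difference of 0.42 was not called (limma adjusted p = 0.298). Ptdsr had 1 probe, and its segment was gained in 3 of 5 tumors and 9 of 40 others, with 0.04 in Brca_42. Rb1, the retinoblastoma gene, had a difference of -0.36 (adjusted p = 0.315), with values of -0.03, 0.31, -0.78, 0.40 and -0.59, and its segment was lost in Brca_14 alone of the 5.

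The 5 profiles were only loosely alike. Pearson's r between pairs of the BRCA1-/-;p53+/- tumors over 2057 bins ranged from 0.110 (Brca_14 and Brca_54) to 0.371 (Brcap53_682 and Brca_54). Neighbouring bins share segments, so these values are descriptions. The mean profile of the model had r = 0.448 with that of MMTV-HRas, 0.414 with p53-/-, 0.346 with C3(1)-Tag and 0.290 with MMTV-Her2/neu, and 0.115 with MMTV-Wnt1. The most alike array of another model was a p53-/- tumor for Brcap53_503 (r = 0.356) and Brca_14 (0.453), an MMTV-HRas tumor for Brcap53_682 (0.372), an MMTV-PyMT tumor for Brca_42 (0.370) and Wnt_4635 for Brca_54 (0.280).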

How the data were processed

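The 45 arrays were Agilent Feature Extraction files (version 9.5.1.1 per the file headers, 10.7 per the submitters' processing notes; genome mm8). The authors deposited log10 dye ratios and channel intensity values per spot, and an interval table (log2 means and probe counts) called with ADM-2. The deposited log10 ratio was turned into log2 Cy3 over Cy5, outlier spots were removed, and each array was centred on its autosomal median. Filtered interval files of single models were not used. Probes over 4 noise SD from the 5 around were moved to that limit before circular binary segmentation (split statistic 6, at least 5 probes). Bins of 1 Mb needed 3 probes. Bins and genes were tested with limma 3.58.1 (R 4.3.3), tumor values by exact permutation and counts by Fisher's exact test (scipy 1.17.1).

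The 2-sided permutation p was first computed by absolute size of the difference. A check against scipy on simulated data showed that scipy doubles the smaller tail, and that definition was then adopted with the first values known. The adjusted p of the chromosome 18 mean went from 0.101 to 0.0149, and both are given. Segmentation recovered 95 of 95 planted changes at each of 3 sizes in simulated arrays. The planted changes were 0.4 over 100 probes, -0.8 over 20 probes and 2.0 over 5 probes. Changes under 0.4 in size, which the calling threshold lets through, were not planted, so their recovery was not tested. In simulated bins limma recovered 98 of 100 shifts of 0.5 over 2057 bins, with 6 calls among bins not shifted. Members and lists were chosen with earlier results of these data known. Genes named were Brca1, Trp53, called list genes and the 3 largest per list, the gene with the largest difference in each of 10 top regions, and genes of segments of at least 1 in size. Of these a selection is described, and Slc10a7, Stk32a, Gprc5d, Rnd2, Nbr1 and the segments of Cdkn2a and Myc were named after their values were seen. Of 20037 gene names, 14558 matched RefSeq, used for names only. Alternatives covered centring, background, loess, filters, bins, thresholds and left-out arrays.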

Additional observations from a re-analysis of the deposited data

Results flagged for a closer look

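Among 69 gene values and tumor measures examined within the 5 BRCA1-/-;p53+/- tumors, 6 (8.70%) had 1 tumor set far from the rest by Dixon's criterion. Chance gives about 1 in 20 for independent values chosen without regard to size. Genes here were in part named for large differences or high-level segments, and some share a segment, so that rate does not apply to them. Srfbp1 read -0.95 in Brcap53_682. Met read 5.50, Cav1 5.24 and Cav2 5.68 in Brca_14, within 1 amplified segment. Cdh2, the N-cadherin gene, read -1.21 in Brca_42. Mad2l1, a spindle checkpoint gene, read 1.16 in Brca_42.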

How the results depend on the processing

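No paired analysis was possible because replicate numbers were given in accession order and pair no samples. Scan date as a block was not run, since the scan days of the BRCA1-/-;p53+/- arrays held no other model. Where a count or call changed, the cause was not tested. With only spots well above background 69 bins were called, 62 of them among the 65. The number of called bins (65) was 22 with centring on the density peak, 2 with normexp, 42 with loess, 17 with 2 Mb bins, 129 with bin means, 21 without the 4 arrays of nearly the same profile, 40 without Wnt_4635, 40 in a fit of 2 groups, 3 with array weights and 1 to 139 on leaving out single arrays. Called genes (1073) were 639 with at least 2 probes and 468 to 1287 on leaving out single tumors. Called chromosome means were 0 with normexp, 0 to 1 on leaving out arrays and 0 with the 2-sided p counted by absolute size, a definition replaced, after both were computed, by the smaller tail doubled. By absolute size the higher of the Brca1 probes passed, above the others (difference 0.25, exact permutation, adjusted p = 0.0341). The difference in segment borders was 26.2 with normexp, 32.0 to 59.95 on leaving out arrays and 111.3 where single deviating probes were not adjusted, a setting chosen after seeing the data. Called chromosome counts were 2 with the density peak 0 with normexp, loess, a threshold of 0.3 or the authors' intervals, and 0 to 2 on leaving out arrays, all but the threshold added after seeing the data. Bins gained in at least 4 tumors were 24 at 0.3, and bins lost were 0 at 0.3 and 0 in the authors' intervals. High-level segments were 18 in the authors' intervals and 260 without the adjustment of single probes.

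The altered share stayed on its side of the threshold in all of its 12 alternatives and 45 left-out arrays, with differences from 2.55 to 20.5. Against MMTV-Myc and MMTV-PyMT the calls were lost on leaving out 14 and 13 of the 45 arrays, among them MMTV-Myc replicates 1 to 5 (exact permutation, adjusted p = 0.0556). Without any 1 of those replicates the MMTV-Myc difference was 33.7 to 35.6, against 34.25 with all arrays, and the MMTV-PyMT difference stayed at 29.2. The exact permutation p for MMTV-Myc with all arrays (0.00794) was the smallest that 5 against 5 can give. With 1 tumor fewer that limit rises, so these tests cannot tell a weaker difference from the smaller number of tumors. Against C3(1)-Tag the difference reversed to -4.42 with normexp, -0.729 at a threshold of 0.3, and as low as -5.36 on leaving out arrays (highest 16.6). The reversed values there were -2.15 and -3.32 without BRCA1-/-;p53+/- replicates 3 and 5, and -3.75, -5.36 and -1.44 without C3(1)-Tag replicates 1, 2 and 4. Against MMTV-Her2/neu it reversed to -9.64 with normexp, -5.82 at 0.3, -1.37 and -2.53 without BRCA1-/-;p53+/- replicates 3 and 5, and -0.542 and -4.05 without MMTV-Her2/neu replicates 3 and 4, with 10.5 as the highest on leaving out arrays. Against MMTV-HRas it reversed to -2.07 at 0.3. Without BRCA1-/-;p53+/- replicate 3 (Brca_14) Met, Cav1 and Cav2 reversed to -0.331, -0.312 and -0.0199 (highest 1.03, 0.986 and 1.31 on leaving out a tumor), and the bin at Klhl1 reversed to -0.18 with only spots well above background.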
